A study of Sus scrofa with 6 samples.

Results

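Nuclear pore and nuclear transport genes were examined in RNA from pig gut. They were chosen by symbol alone: nucleoporin genes named NUP with a number, the importin and exportin families (KPNA, KPNB, IPO, TNPO and XPO), and NDC1, POM121, SEH1L, SEC13, RAE1, AAAS, TPR, CSE1L, RAN, RANBP1, RANBP2 and RANGAP1. Of the 21911 genes in the deposited table, 55 matched. RAN, NUP62, IPO13 and POM121 had no identifier under those symbols in the name table and were not analysed here. The 6 samples, labelled gut, were 3 with the treatment Control and 3 with the treatment SMP. The series' design text describes piglets given a metasilicate-based alkaline mineral water and Control piglets. Gut segment, strain, age, sex, dose and duration are absent from the sources used here. The labels do not say that each sample came from its own piglet, so p-values measure the spread between these samples.

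The nuclear pore is a protein channel through the nuclear envelope, built from stacked scaffold rings, membrane anchors, a central channel of flexible phenylalanine-glycine repeats, filaments on the cytoplasmic face and a basket on the nuclear face. Importins and exportins are receptors that carry proteins and RNAs through it, and the small GTPase Ran, kept in its GTP form in the nucleus and its GDP form in the cytoplasm, sets the direction. Dividing cells, which in the gut epithelium lie in the crypts, have to build new pores in each cell cycle.

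Levels are given as FPKM, a fragment count scaled by gene length and by library total, so that levels of different genes can be set side by side. Library totals recovered from the values were 15927028 to 20712701 reads or read pairs. A log2 difference is the SMP mean of log2(FPKM + 1) minus that of Control, a scale that makes changes of low genes look smaller, and adjusted p-values are from limma over all 11471 genes whose mean reached 1 FPKM. Of the 55 pore and transport genes 50 passed that filter, and none of these had fewer than 74 reads in any library. In all 6 samples the intestinal epithelial markers were high (summed level 4542 to 5587 FPKM in Control and 4069 to 4858 in SMP). None of the 10 tested was called, and 6 had log2 differences above 0 and 4 below. Every SMP value lay below every Control value for CLDN3 and ELF3, and above for VIL1. SMP replicate 3 and Control replicate 2 stood apart from the others of their groups on the second principal component (28.9 and -38.6, against -6.10 to 15.1 for the other libraries), and counts are given with and without them. The Y-linked gene EIF1AY was at 0.187, 0 and 0.0320 FPKM in Control against 25.7, 29.6 and 23.9 in SMP, so sex and treatment cannot be told apart for any gene below.

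Most pore and transport genes had higher values in SMP. Of the 50 tested, 13 rose at an adjusted p under 0.05 (26.0%), where 3.5% of all tested genes rose and 5.6% were called in either direction. None fell, where 2.1% of all tested genes fell, and by limma none was lower at an unadjusted p under 0.05 either. The voom method of the same package, run on the recovered reads of the same libraries, also called 0 lower. The log2 difference was above 0 in 48 of 50 (96.0%), against 58.9% of all tested genes, and its median was 0.52 against 0.09. Every SMP value lay above every Control value in 37 of the 50 (74.0%, against 21.1% of all tested genes), and the reverse order occurred in 0 (11.5% of all tested genes). The summed level of the 55 genes was 461, 455 and 441 FPKM in the Control libraries and 686, 676 and 597 in the SMP libraries (replicates 1 to 3, here and below), so that SMP replicate 3 was the SMP library nearest to Control. In bulk tissue, more cells that express these genes and more RNA per cell cannot be told apart.

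The 13 genes that rose were NUP160, NUP43, NUP205, NUP155, NUP188, NDC1, NUP54, NUP58, KPNA2, KPNB1, XPO5, CSE1L and RANGAP1. Their folds of mean FPKM ran from 1.65 to 2.40 and their adjusted p-values from 0.0174 to 0.0498, close under the threshold. With 1 library fewer the calls depended on which library it was. None of the 13 calls was kept without Control replicate 3, SMP replicate 1 or SMP replicate 2, and NUP205 alone kept its call without Control replicate 1; in these 4 fits only 0.183% to 0.776% of all tested genes were called higher. Without SMP replicate 3, 20 of the 50 were called higher, 12 of the 13 among them, where 6.76% of all tested genes were. Without Control replicate 2 the count was 10, with 9 of the 13, where 4.66% of all tested genes were. Without both SMP replicate 3 and Control replicate 2, 31 of 50 were called higher, all 13 among them, where 15.7% of all tested genes were. The median log2 difference of the 50 genes was 0.45 to 0.56 in the fits that left out 1 library.

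**Figure D1:**
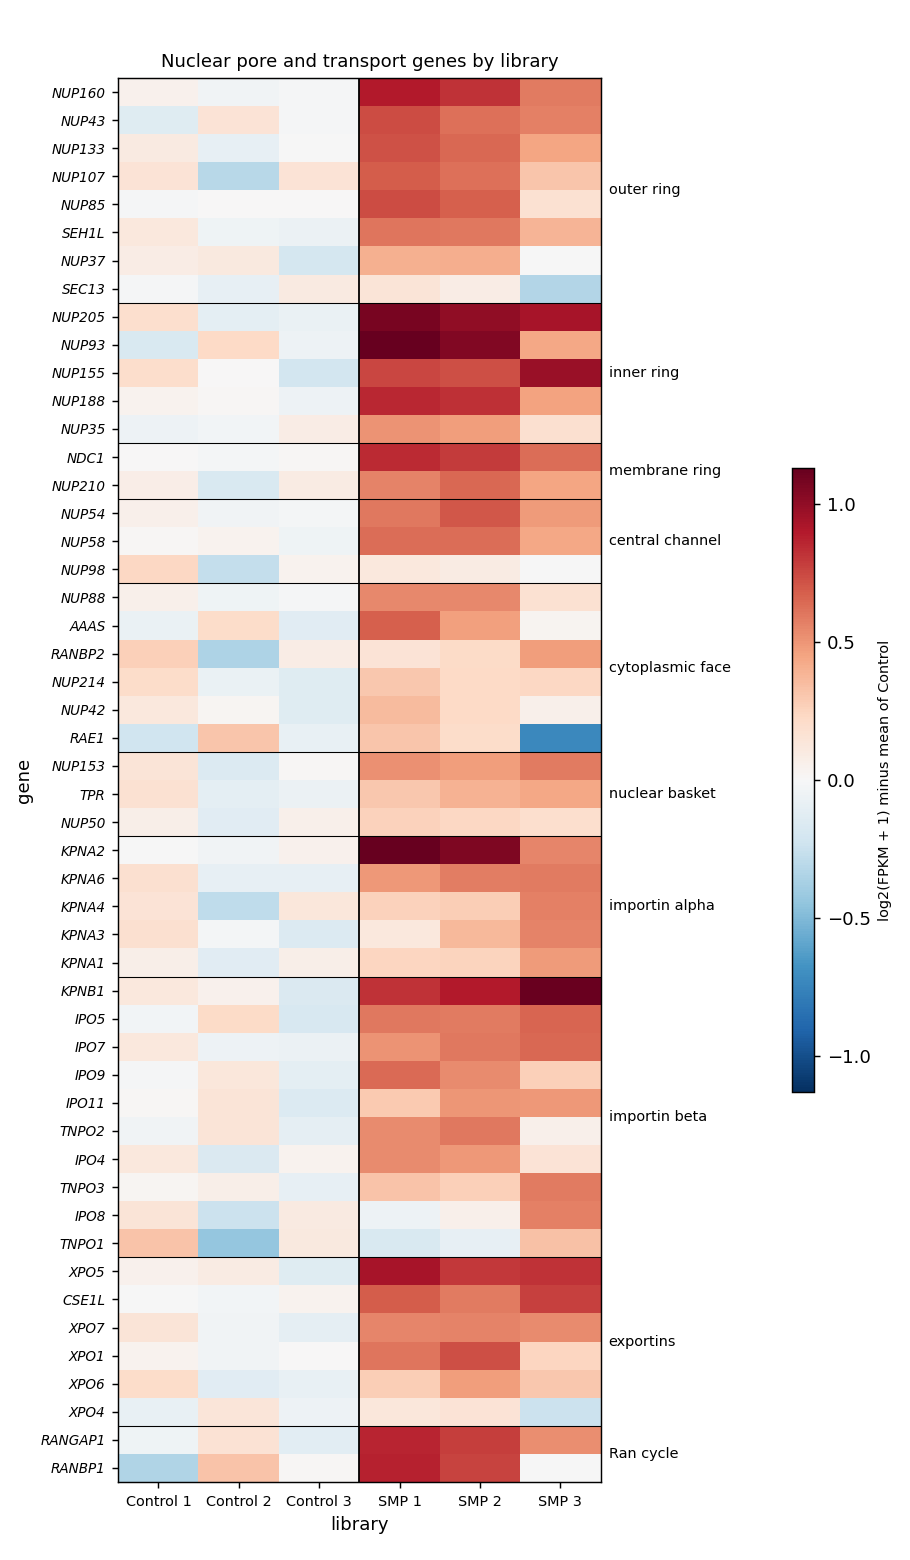
Level of each of the 50 tested genes (rows, grouped by role) in each library (columns), as log2(FPKM + 1) minus the mean of the 3 Control libraries of that gene; red is higher and blue lower. Nearly all rows are red in SMP replicates 1 and 2; in SMP replicate 3 the ring genes other than NUP155 are paler than in the other SMP libraries, and RAE1, SEC13 and XPO4 are blue.

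The outer rings of the pore are made of the Y complex, which contributes NUP107, NUP133, NUP160, NUP85, NUP37, NUP43, SEH1L and SEC13 to the scaffold. Of these 8 genes 2 rose, NUP160 and NUP43. NUP160 (ENSSSCG00000013223), a large subunit of the short arm of the Y, was at 1.96, 1.79 and 1.83 FPKM in Control against 4.31, 4.04 and 3.30 in SMP. The groups lay well apart, with SMP replicate 3 the lowest of its group, and the mean rose 2.09-fold (log2 difference 0.77, SE 0.14, adjusted p = 0.0300). NUP43 (ENSSSCG00000004105), a beta-propeller protein of the same complex, was at 1.40, 1.95 and 1.62 in Control against 3.40, 3.06 and 2.93 in SMP (log2 difference 0.64, SE 0.14, adjusted p = 0.0485). Control replicate 2 was the highest Control library for it and still below every SMP library.

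NUP133 and NUP107, which form the stem of the Y, and NUP85 and SEH1L, of its arm, also had every SMP library above every Control library, but with log2 differences of 0.60, 0.54, 0.53 and 0.53 they missed the threshold (adjusted p = 0.0535, 0.130, 0.123 and 0.0665). For NUP85 the 3 Control values were nearly equal (2.40, 2.43 and 2.43 FPKM), and SMP replicate 3, at 2.86, was much closer to them than SMP replicates 1 and 2, at 4.72 and 4.46. NUP37, a propeller protein bound to NUP160, overlapped between groups (log2 difference 0.27). SEC13 (ENSSSCG00000011572), which is shared with the COPII coat of vesicles that leave the endoplasmic reticulum, had the highest level of the complex. It was at 20.2, 19.0 and 21.9 FPKM in Control against 22.5, 21.6 and 16.0 in SMP. Its groups overlapped, and its log2 difference was -0.04 (95% interval -0.43 to 0.36, adjusted p = 0.917).

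The inner ring, the scaffold around the central channel, had the largest median log2 difference of the 10 role groups (0.82), and all 5 of its genes had SMP wholly above Control. That order held in 74.0% of the 50 tested genes and in 21.1% of all tested genes. Of the 5, NUP205, NUP155 and NUP188 rose (60.0%, against 26.0% of the 50 and 3.5% of all tested genes). NUP205 (ENSSSCG00000030386), one of the largest scaffold nucleoporins, was at 2.95, 2.20 and 2.28 FPKM in Control against 6.26, 5.94 and 5.59 in SMP. The lowest SMP library was well above the highest Control library, and the rise of 2.40-fold was the largest among the 50 tested genes (log2 difference 1.00, SE 0.14, adjusted p = 0.0174). NUP188 (ENSSSCG00000005667), its structural relative, had the highest level of the ring and rose from 6.28, 6.14 and 5.77 to 11.7, 11.5 and 8.69, with SMP replicate 3 again nearest to Control (log2 difference 0.71, SE 0.15, adjusted p = 0.0456).

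NUP155 (ENSSSCG00000016845), which links the inner ring to the membrane, was at 2.90, 2.41 and 1.94 FPKM in Control against 4.74, 4.62 and 5.66 in SMP. Here SMP replicate 3 was the highest library, unlike in the other 4 genes of the ring (log2 difference 0.82, SE 0.16, adjusted p = 0.0349). NUP93, the hub that connects the ring to the channel proteins, was at 3.72, 5.20 and 4.09 in Control against 10.6, 9.96 and 6.19 in SMP. Its log2 difference of 0.87 was second in the ring to that of NUP205, but its spread within SMP was wide and it missed the threshold (SE 0.22, adjusted p = 0.0661). NUP35, a small membrane-binding subunit, had a log2 difference of 0.39 (adjusted p = 0.152).

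Of the membrane ring, which anchors the pore in the envelope, NDC1 rose. NDC1 (ENSSSCG00000028748), a membrane-spanning nucleoporin, was at 1.40, 1.35 and 1.41 FPKM in Control against 3.28, 3.13 and 2.69 in SMP. The Control values were almost identical and the mean rose 2.19-fold (log2 difference 0.76, SE 0.13, adjusted p = 0.0270). NUP210, the glycoprotein of the membrane ring and the higher of the pair, was at 4.55 ± 0.552 in Control and 7.13 ± 0.555 in SMP (SD, n = 3; adjusted p = 0.0639). Its germline relative NUP210L was at 0.125 ± 0.0751 and 0.123 ± 0.0489 FPKM and was below the filter.

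The central channel is filled by phenylalanine-glycine repeat proteins that transport receptors pass through. Of 3 tested genes NUP54 and NUP58, which form a trimer with NUP62, both rose. NUP54 (ENSSSCG00000008979) was at 2.38, 2.16 and 2.20 FPKM in Control against 3.90, 4.26 and 3.54 in SMP (log2 difference 0.59, SE 0.13, adjusted p = 0.0460). NUP58 (ENSSSCG00000035318) was at 2.98, 3.05 and 2.82 in Control against 5.11, 5.10 and 4.35 in SMP (log2 difference 0.56, SE 0.12, adjusted p = 0.0498). Both genes showed tight Control values and no overlap. The third, NUP98 (ENSSSCG00000014794), whose precursor in human also gives the Y complex subunit NUP96, stood at 12.8, 8.73 and 11.1 in Control against 11.7, 11.5 and 10.7 in SMP. Its groups overlapped and its log2 difference was 0.07 (95% interval -0.32 to 0.45, adjusted p = 0.822). NUP62CL, a relative of NUP62, was at 0.522 ± 0.277 and 1.18 ± 0.530 FPKM, below the filter over all libraries.

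None of the 6 genes of the cytoplasmic face passed the test, and their median log2 difference was 0.27. NUP88 and NUP214, partners in the filament complex that receives export cargo, had SMP wholly above Control, at 10.2 ± 0.439 against 14.0 ± 2.15 FPKM for NUP88 (adjusted p = 0.143) and 5.69 ± 0.878 against 6.94 ± 0.228 for NUP214 (adjusted p = 0.304). AAAS, also called ALADIN, and NUP42, a partner of the mRNA export factor GLE1, had log2 differences of 0.39 and 0.21 with overlapping groups. AAAS had the highest mean level of these genes (10.7 ± 1.50 and 14.5 ± 3.35 FPKM, adjusted p = 0.277). RANBP2, the largest filament protein and a SUMO ligase, was at 10.7, 6.63 and 9.34 in Control against 9.84, 10.3 and 12.5 in SMP, with its highest value in SMP replicate 3 and its lowest in Control replicate 2 (adjusted p = 0.417).

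RAE1 (ENSSSCG00000007503), an mRNA export factor that binds NUP98, had the lowest log2 difference of the 50 genes. It was at 9.38, 14.1 and 10.4 FPKM in Control against 14.1, 12.97 and 6.35 in SMP. The single low SMP value was that of replicate 3, and the groups overlapped (log2 difference -0.07, 95% interval -0.78 to 0.64, adjusted p = 0.906). Without SMP replicate 3 and Control replicate 2 the sign turned and RAE1 was called higher (log2 difference 0.41, adjusted p = 0.0471).

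In the nuclear basket, TPR, NUP153 and NUP50 all had SMP wholly above Control, an order seen in 21.1% of all tested genes. None of the basket genes passed the test. NUP153, which anchors the basket to the pore and had the smallest p of these genes, was at 4.33, 3.31 and 3.84 FPKM in Control against 5.89, 5.65 and 6.22 in SMP (log2 difference 0.52, SE 0.13, adjusted p = 0.0681). NUP50, a cofactor that releases cargo from importin alpha, had the highest level of the basket, at 16.4 ± 1.32 and 19.3 ± 0.476 (adjusted p = 0.320). TPR, the coiled-coil strand of the basket, was at 8.87 ± 1.07 and 11.8 ± 0.590 (adjusted p = 0.144).

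**Figure D2:**
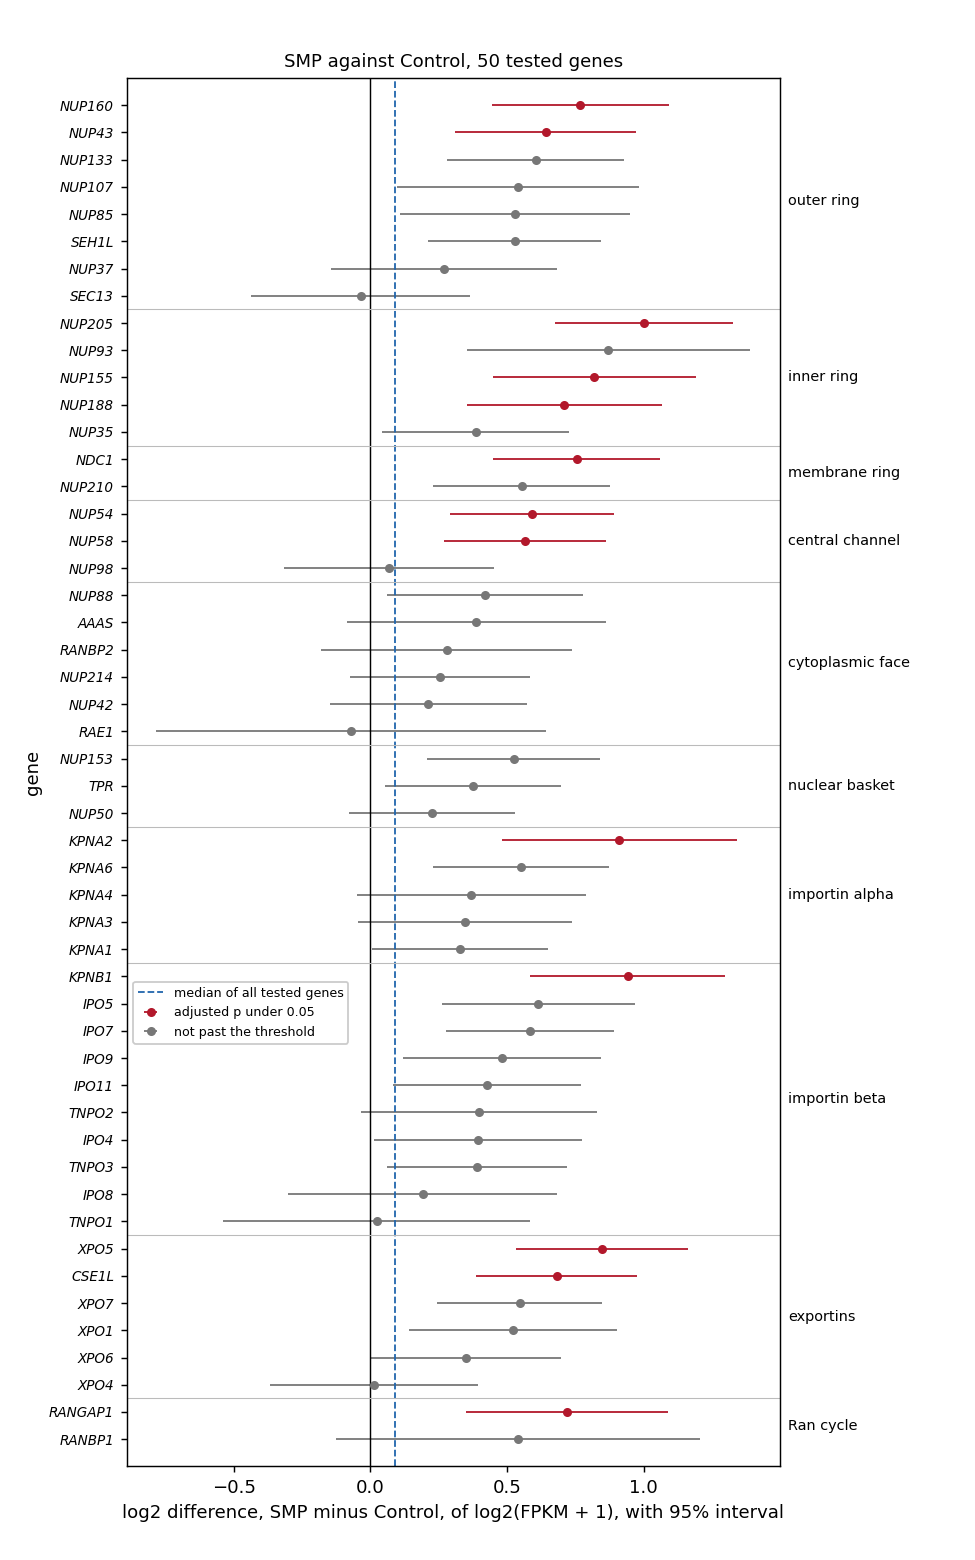
Log2 difference (SMP minus Control, of log2(FPKM + 1)) of each of the 50 tested genes with its 95% interval, by role; red points have an adjusted p under 0.05, and the dashed line is the median of all tested genes. Of the points, 48 lie above 0 and RAE1 and SEC13 lie below it; NUP205 and KPNB1 lie farthest to the right, at 1.00 and 0.94.

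Importin alpha proteins are the adapters that recognise classical nuclear localisation signals, and 1 of 5 tested rose (20.0%, where 3.5% of all tested genes rose). KPNA2 (ENSSSCG00000029005), the adapter typical of dividing cells, was at 12.4, 12.2 and 12.96 FPKM in Control against 28.5, 27.2 and 18.8 in SMP. SMP replicate 3 lay between the groups' other values but above every Control library, and the mean rose 1.98-fold (log2 difference 0.91, SE 0.18, adjusted p = 0.0385). KPNA4, the adapter with the highest level in Control, was at 21.2, 15.4 and 20.8 in Control against 22.9, 23.1 and 28.6 in SMP, without overlap and short of the threshold (log2 difference 0.37, adjusted p = 0.244). In it SMP replicate 3 was the highest library, the opposite of its place in KPNA2.

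KPNA6, KPNA3 and KPNA1, further adapters, had log2 differences of 0.55, 0.35 and 0.33 (adjusted p = 0.0634, 0.241 and 0.188). KPNA5, at 0.872 ± 0.122 and 1.06 ± 0.141 FPKM, was just below the filter. KPNA7, an adapter of oocytes and early embryos, was nearly absent, with 1, 2 and 2 reads in Control against 20, 11 and 1 in SMP, and was not tested.

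Among the 10 importin beta family genes, the carriers themselves, KPNB1 rose. KPNB1 (ENSSSCG00000017514), importin beta 1, which carries importin alpha with its cargo, was at 17.2, 16.4 and 13.9 FPKM in Control against 28.5, 30.2 and 35.3 in SMP. It had the highest mean level of its family, its groups lay far apart, and the mean rose 1.98-fold. Its log2 difference was the second largest of the 50 (0.94, SE 0.15, adjusted p = 0.0240), although lower genes such as NDC1 (2.19-fold) rose by a larger fold. IPO5 and IPO7, carriers of ribosomal proteins and histones among other cargo, also had groups without overlap, though closer together, and missed the threshold narrowly. IPO7 was at 15.1, 13.2 and 13.2 in Control against 20.1, 21.4 and 22.3 in SMP (log2 difference 0.58, adjusted p = 0.0505). IPO5 was at 16.0, 19.2 and 14.3 in Control against 25.3, 25.1 and 26.4 in SMP (log2 difference 0.61, adjusted p = 0.0618).

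IPO9 and IPO4, carriers of histones, IPO11, a carrier of ubiquitin-conjugating enzymes, and TNPO3, a carrier of SR splicing factors, had SMP wholly above Control with log2 differences of 0.39 to 0.48 (adjusted p from 0.108 to 0.181). TNPO2, a close relative of TNPO1, overlapped between groups (log2 difference 0.40), as did IPO8 (0.19). TNPO1 (ENSSSCG00000027293), transportin 1, which imports hnRNP proteins, was at 12.2, 6.80 and 10.4 FPKM in Control against 8.34, 8.91 and 12.3 in SMP. No order of the groups was visible in it, with Control replicate 2 the lowest library and SMP replicate 3 the highest (log2 difference 0.02, 95% interval -0.54 to 0.58, adjusted p = 0.964).

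Of 6 tested exportins 2 rose (33.3%, where 3.5% of all tested genes rose). XPO5 (ENSSSCG00000001679), which exports microRNA precursors, was at 13.5, 13.9 and 11.7 FPKM in Control against 25.7, 23.3 and 23.7 in SMP. All 3 SMP values were similar and far above Control, and it had the highest mean level of the exportins (1.86-fold, log2 difference 0.85, SE 0.13, adjusted p = 0.0233). CSE1L (ENSSSCG00000025534), which returns importin alpha to the cytoplasm, rose from 11.3, 11.0 and 11.6 to 18.8, 17.5 and 20.1 (1.66-fold, log2 difference 0.68, SE 0.12, adjusted p = 0.0314). KPNA2, KPNB1 and CSE1L, an adapter, the carrier and the recycler of the classical import cycle, were each among the 13 genes that rose. The other tested adapters, KPNA1, KPNA3, KPNA4 and KPNA6, were not, and the cycle as a whole was not tested.

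XPO1, the main exporter of proteins with leucine-rich export signals, was at 9.54, 8.94 and 9.25 FPKM in Control against 14.5, 16.0 and 11.1 in SMP, without overlap (log2 difference 0.52, adjusted p = 0.101). XPO7 was at 8.05 ± 0.811 and 12.2 ± 0.133 (adjusted p = 0.0567), and XPO6, the exporter of actin, at 12.9 ± 1.78 and 16.6 ± 1.28 (adjusted p = 0.193). XPO4, an exporter of the translation factor eIF5A, was at 12.2, 14.4 and 12.5 in Control against 14.3, 14.6 and 10.9 in SMP. Its groups overlapped, with SMP replicate 3 the lowest library of all (log2 difference 0.01, 95% interval -0.37 to 0.39, adjusted p = 0.968). XPOT, the exporter of tRNA, was at 0.672 ± 0.0586 and 0.840 ± 0.127 and was below the filter.

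In the Ran cycle, RANGAP1 rose and RANBP1 was not past the threshold. RANGAP1 (ENSSSCG00000028202), the protein that activates GTP hydrolysis by Ran at the cytoplasmic face, was at 18.6, 21.8 and 17.7 FPKM in Control against 35.9, 33.8 and 28.1 in SMP (1.68-fold, log2 difference 0.72, SE 0.16, adjusted p = 0.0480). RANBP1 (ENSSSCG00000038308), its co-activator, had the highest level of the 55 genes, at 36.2, 58.0 and 46.5 in Control against 84.7, 78.7 and 46.0 in SMP. SMP replicates 1 and 2 were above every Control library, whereas SMP replicate 3 fell inside the Control range (log2 difference 0.54, 95% interval -0.13 to 1.21, adjusted p = 0.281).

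**Figure D3:**
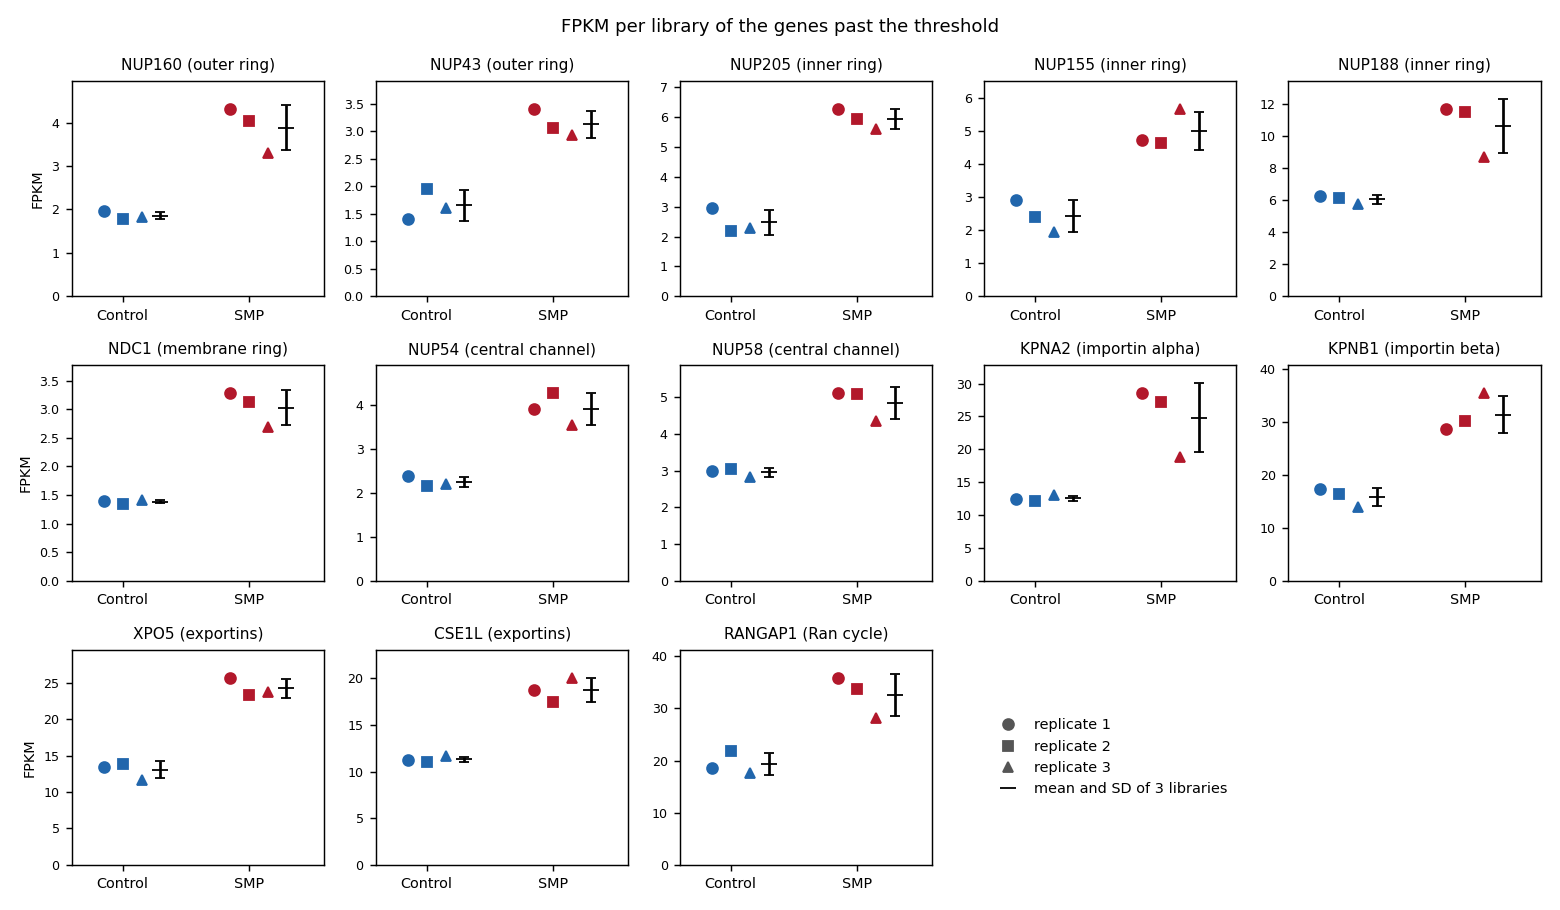
FPKM in each library of the 13 genes with an adjusted p under 0.05 (blue, Control; red, SMP; the marker gives the replicate; the bar is the mean and SD of 3 libraries; each axis starts at 0). In every panel the lowest SMP library lies above the highest Control library, and SMP replicate 3 is the lowest SMP library in most panels but the highest for NUP155, KPNB1 and CSE1L.

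SMP replicate 3 did not sit lower across all roles. It was the lowest SMP library in 14 of the 15 tested ring genes (outer, inner and membrane), where it was so in 53.9% of all tested genes. It was the highest in 10 of the 15 tested importin genes, where it was so in 33.3% of all tested genes. The ring and importin sets are only part of the roles. Over all tested pore and transport genes it was the lowest SMP library in 62% and the highest in 30%, against 53.9% and 33.3% of all tested genes. Whether its place differed between roles was not tested. The mean log2(FPKM + 1) of the outer ring was 2.74, 2.69 and 2.40 in SMP replicates 1, 2 and 3, and that of the importin beta family 3.83, 3.87 and 3.91. In Control the same means were 2.17, 2.09 and 2.12 for the outer ring and 3.50, 3.41 and 3.36 for the importin beta family, all below the SMP values.

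Among other genes of nuclear transport and the nuclear envelope, 1 of 11 tested transport accessory genes, 1 of 22 mRNA export genes and 1 of 18 envelope and lamina genes rose, and limma called none lower. Together these are 3 of 51 (5.88%), near the 3.5% of all tested genes that rose, and say nothing particular about these lists. The difference in share from the pore and transport genes was not tested. RCC1 (ENSSSCG00000029097), the exchange factor that loads Ran with GTP on chromatin, rose from 5.10, 4.89 and 5.41 FPKM to 13.5, 11.9 and 10.4 (log2 difference 1.07, SE 0.14, adjusted p = 0.0160). NCBP1 (ENSSSCG00000005366), the large subunit of the nuclear cap-binding complex, rose from 2.59 ± 0.254 to 4.72 ± 0.115 (adjusted p = 0.0315), and LMNB2, a B-type lamin, from 7.85 ± 0.844 to 14.9 ± 2.81 (adjusted p = 0.0435). The lists' median log2 differences were 0.06, 0.30 and 0.13. By limma at an unadjusted p under 0.05, 2, 8 and 5 genes of these lists (18.2%, 36.4% and 27.8%) differed in either direction, where 25.8% of all tested genes did.

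Genes of dividing cells moved with the pore and transport genes. MKI67, PCNA, CCNA2 and RRM2 had no identifier under those symbols. Of 12 tested, 6 rose, where 3.5% of all tested genes rose, and none fell (median log2 difference 0.83). TOP2A was among the 6, rising from 14.0 ± 1.45 to 36.0 ± 6.31 FPKM (adjusted p = 0.0174). CDK1 and AURKB overlapped between the groups, and AURKB in SMP replicate 3 (7.97 FPKM) was below every Control library. The summed level of these 12 genes was 130, 151 and 144 FPKM in Control against 305, 289 and 222 in SMP. SMP replicate 3 was nearest to Control, as in the ring genes. Of 11 tested leukocyte markers 2 fell, MZB1 and JCHAIN, both plasma cell genes, where 2.1% of all tested genes fell. All 11 had log2 differences below 0. In 5 every SMP value lay below every Control value (11.5% of all tested genes): MZB1, JCHAIN, CORO1A, CD79A and CD79B. By limma CORO1A, CD79A and CD79B missed the threshold (adjusted p = 0.0833, 0.0543 and 0.0797). The other 6 overlapped between the groups, the T cell genes CD3E, CD3D and CD2 among them. The summed level of the list was 336 to 546 FPKM in Control and 169 to 208 in SMP. Without MZB1 and JCHAIN, left out after their values were seen, the sums overlapped (141 to 259 FPKM in Control, 113 to 173 in SMP). Summed levels of smooth muscle (176 to 2883 and 1653 to 2254), fibroblast (163 to 660 and 432 to 786) and enteric neuron and glia markers (5.83 to 41.2 and 14.7 to 23.9) overlapped between the groups, and 0 of their 19 tested genes were called by limma, also at an unadjusted p under 0.05. All 19 still had log2 differences above 0, with medians of 1.32, 0.74 and 0.31 in that order of lists. Control libraries spread widely: the smooth muscle sum was 1026, 2883 and 176 FPKM in Control replicates 1 to 3. A difference in these cell types between the groups can thus be hidden. None of these markers was at 0 in all libraries of a group. The part of dividing cells or of other cell types in the results above was not tested.

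**Figure D4:**
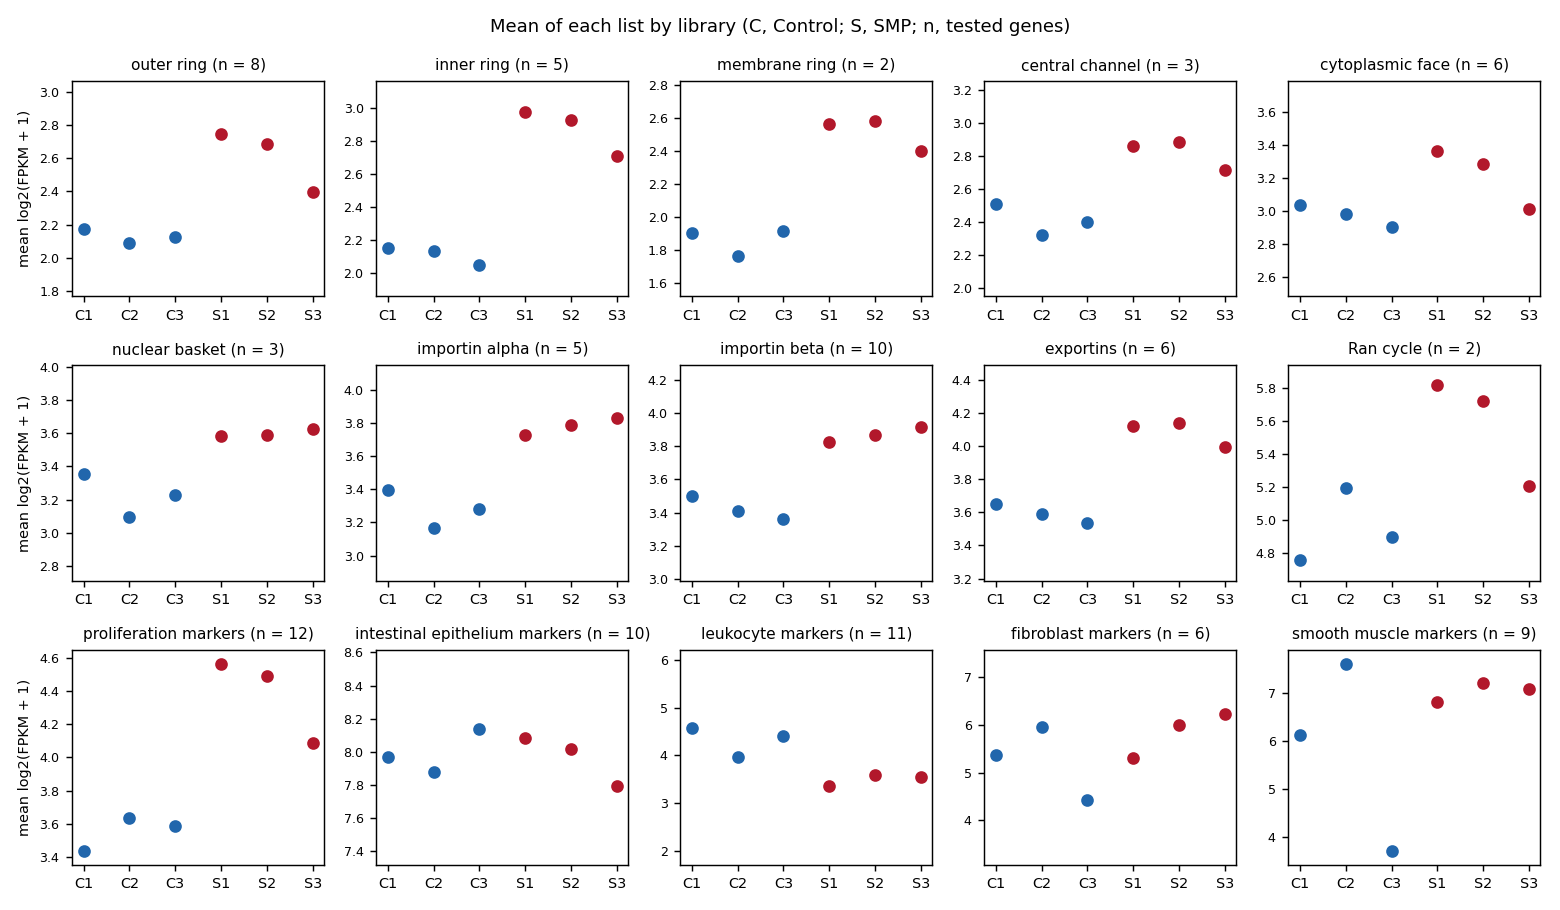
Mean log2(FPKM + 1) over the tested genes of each role group (upper 2 rows) and of each marker list (bottom row) in each library; blue is Control and red SMP, and the axes of the last 3 panels span a wider range. In 9 of the 10 role groups and in the proliferation markers every SMP library lies above every Control library, the exception being the cytoplasmic face, where SMP replicate 3 (3.02) is level with Control replicate 1 (3.04).

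The pore and transport genes were longer than most: the median length behind their values was 6383 bases, against 4039 for all tested genes. With each library's trend with gene length removed, 8 were called higher and the median log2 difference was 0.37, against 0.00037 for all tested genes. Rescaling the libraries by median ratios gave 9 and a median of 0.43, against -0.0020. These alternatives moved the balance of calls over all tested genes, from 401 higher and 241 lower to 375 and 408 with the length trend removed and to 344 and 462 with median ratios. Under both, KPNB1, NDC1, NUP155, NUP160, NUP205 and XPO5 kept their calls, whereas NUP98, XPO4 and TNPO1 turned to slightly negative log2 differences (-0.032 to -0.15).

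**Figure D5:**
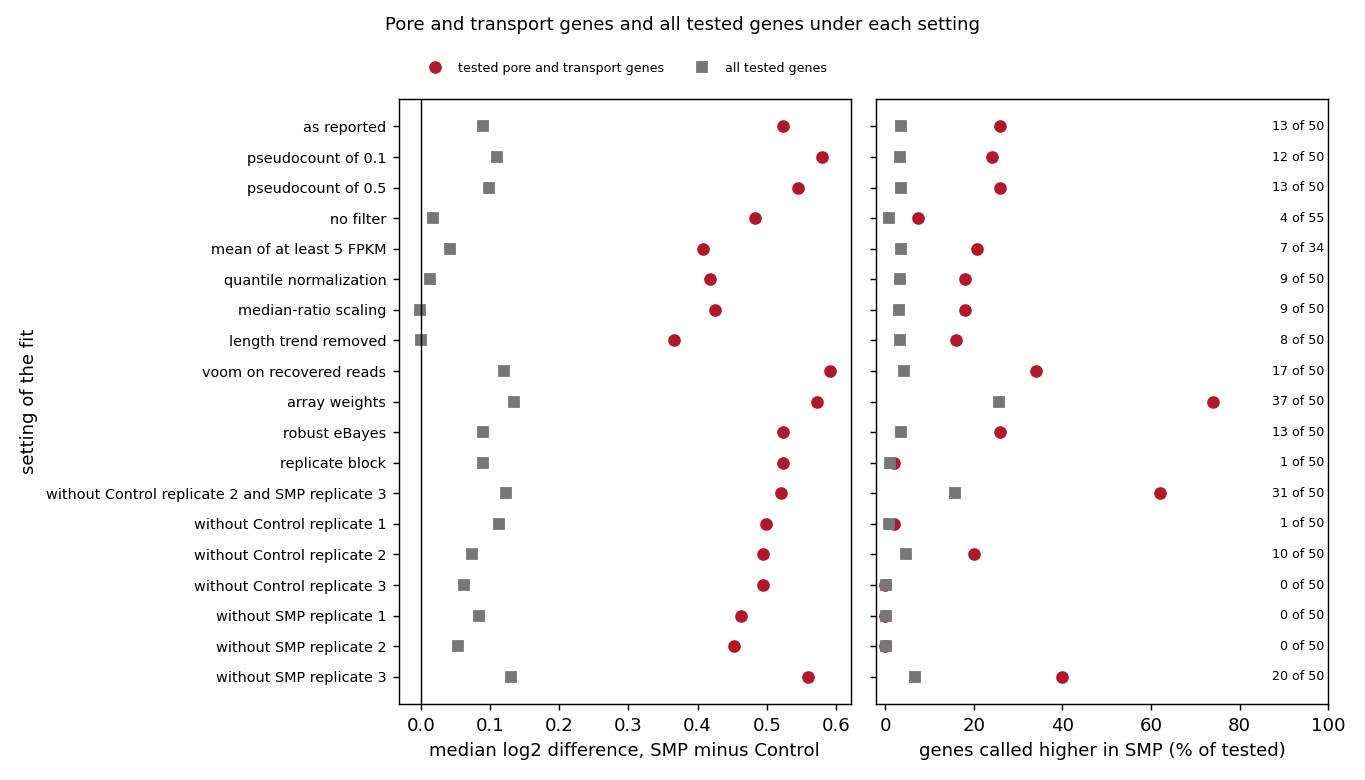
Median log2 difference (left) and percentage of genes called higher in SMP (right) for the tested pore and transport genes (red circles) and all tested genes (grey squares) under each setting of the fit; numbers at the right give the called and tested pore and transport genes. The red median lies between 0.37 and 0.59 in every setting and always above the grey one, while the called share runs from 0 to 37 of 50.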

How the data were processed

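RNA-seq values of 6 pig gut samples were analysed. The kit was NEBNext Ultra, per the labels' protocols. Strand setting and treatment of multi-mapped reads are not stated in any source used here, which leaves genes that overlap others or have near-identical copies uncertain. HISAT2 2.0.5, StringTie and DESeq2 1.16.1 are listed without a role in the submitters' processing notes, together with mm10, a mouse build, although the deposited identifiers are pig Ensembl ones; no coordinates are given. The authors deposited 1 FPKM value per gene and sample, a unit read from the values. Fragment numbers, gene lengths and library totals could be recovered from them for 21911 of 21911 genes at a relative tolerance of 1e-08. The listed genes held 98.6% to 99.0% of the library totals.

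Symbols came from a table of gene names (14153 identifiers matched). A pseudocount of 1 was added before the log2 transform, and genes had to average at least 1 FPKM over the 6 libraries. They were fitted with limma 3.58.1 in R 4.3.3, with treatment as the single term, an empirical Bayes trend and Benjamini-Hochberg adjustment at 0.05 over all tested genes; the script was tested on simulated data. A count test was not used as the main one, because the values are FPKM. Genes named by rule were those past the threshold, the highest and the smallest p of each role, and the 3 largest and 3 smallest differences; the other genes were described to account for every member. The members, lists and alternatives were chosen with earlier results of these data known. Alternatives were other pseudocounts (0.1, 0.5), no filter or a mean of at least 5, quantile and median-ratio scaling, removal of the length trend (lowess span 0.4), voom on the recovered reads, array weights, a robust fit, a replicate block and left-out libraries.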

Additional observations from a re-analysis of the deposited data

How the results depend on the processing

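The number of pore and transport genes called higher was 13 as reported. It was 4 with no filter, 7 with a mean of at least 5 FPKM (34 tested), 8 with the length trend removed, 37 with array weights and 31 without both Control replicate 2 and SMP replicate 3, where 0.721%, 3.59%, 3.27%, 25.6% and 15.7% of all tested genes were called higher. Leaving out 1 library gave 0 to 20, where 0.183% to 6.76% of all tested genes were. It stayed within 1.5 times of 13 with both pseudocounts, quantile and median-ratio scaling, voom and the robust fit. The number called lower was 0 in each of these fits. Only with the stricter filter, quantile normalization, median-ratio scaling and the length trend removed did the median log2 difference (0.52) move by more than the spread between SMP libraries, to 0.41, 0.42, 0.43 and 0.37. With the stricter filter the log2 differences of the 34 genes still tested were unchanged. With median-ratio scaling the median of all tested genes fell too, from 0.09 to -0.0020. The cause of the other changes was not tested.

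With the replicate number as a block 1 gene, NUP205, was called higher, where 1.00% of all tested genes were. The numbers are not shown to pair the samples: the deviations of same-numbered samples from their group means correlated at -0.31, 0.32 and -0.04, and Control replicate 1 correlated best with SMP replicate 3 (0.38).

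Signs turned for 6 genes, none of them called in the reported fit. XPO4 turned with quantile normalization (-0.036), median-ratio scaling (-0.090) and the length trend removed (-0.14), as did TNPO1 (-0.044, -0.076 and -0.15), and NUP98 turned with the latter pair (-0.032 and -0.092). With array weights RAE1 turned to 0.29, IPO8 to -0.041, TNPO1 to -0.22 and SEC13 to 0.037. Without both doubted libraries NUP98 was at -0.031, RAE1 at 0.41, IPO8 at -0.12, TNPO1 at -0.35 and SEC13 at 0.065. Leaving out 1 library gave -0.057 to 0.14 for XPO4, -0.067 to 0.18 for NUP98, -0.26 to 0.26 for RAE1, -0.19 to 0.18 for TNPO1 and -0.12 to 0.11 for SEC13. The tested genes had at least 74 reads in each library.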

Other observations

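Within-family make-up was computed from FPKM in each library, with the pairs and families chosen after the values were seen, so no test is given. KPNA2 made up 22.6%, 26.7% and 25.1% of the summed importin alpha level in the Control libraries and 37.5%, 35.2% and 24.6% in the SMP libraries. SMP replicates 1 and 2 were above every Control library, and SMP replicate 3 was inside the Control range. KPNA4, the most abundant adapter in every Control library, made up 38.5%, 33.7% and 40.2% in Control against 30.1%, 30.0% and 37.5% in SMP.

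KPNB1 made up 13.3% to 14.8% of the summed importin beta family level in Control and 17.9% to 21.3% in SMP, without overlap. Among the exportins, XPO5 made up 18.0% to 20.3% in Control and 22.7% to 25.1% in SMP, without overlap. XPO4 made up 17.2% to 21.1% in Control and 11.5% to 14.2% in SMP. Shares of a sum depend on every gene in it: the level of XPO4 itself overlapped between the groups (log2 difference 0.01), while XPO5 and CSE1L rose.

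Ratios between genes of the same library do not depend on a scaling factor shared by the whole library. They can change with adjustments made by level or by gene length. The FPKM ratio of NUP205, a ring scaffold gene, to NUP98, a channel gene, was 0.230, 0.252 and 0.205 in Control against 0.533, 0.514 and 0.521 in SMP. All 3 SMP libraries, replicate 3 included, gave nearly the same ratio. For NUP93, another ring gene, the ratio to NUP98 overlapped between the groups. It was 0.291, 0.596 and 0.369 in Control against 0.903, 0.862 and 0.576 in SMP. The ratio of KPNB1 to TNPO1 was 1.41, 2.41 and 1.34 in Control against 3.42, 3.39 and 2.88 in SMP. In contrast, the ratio of RANBP1 to RANGAP1 was 1.94, 2.66 and 2.63 in Control against 2.36, 2.33 and 1.64 in SMP, with overlapping groups. The ratio of KPNA2 to KPNA4 also overlapped, at 0.587, 0.792 and 0.624 in Control against 1.24, 1.18 and 0.658 in SMP.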
